A study of Mus musculus with 6 samples.

Results

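The acinar transcription factors are 7 genes, Ptf1a, Rbpjl, Bhlha15, Nr5a2, Gata4, Gata6 and Mecom, taken by symbol from a mouse count table of 46983 genes. Every one of the 7 was found in the table and passed the filter on low counts, as did 13996 genes in all. RNA came from isolated pancreatic islets of wild-type mice, cultured in CMRL medium for 24 h at low (non-stimulating) glucose or at high (stimulating) glucose, with 3 libraries in each group. Islets are the endocrine cell clusters that hold the beta cells, and they are embedded in exocrine tissue made largely of acinar cells. Glucose concentrations, the strain and age of the mice, and how many animals went into each library are not given in the sources used here. Whether the 3 libraries of a group are separate mice, separate cultures or repeats of 1 preparation is not stated either, and every p-value reflects only their spread, which could be technical.

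Acinar cells make and secrete digestive enzymes. PTF1A, a basic helix-loop-helix (bHLH) protein, and RBPJL, a DNA-binding relative of the Notch effector RBPJ, join a common bHLH partner (an E protein) in the trimeric PTF1 complex, which switches on the enzyme genes. In the developing pancreas PTF1A works first with RBPJ and later, in acinar cells, with RBPJL. BHLHA15 (MIST1) is a bHLH factor of secretory cells that drives the secretory apparatus, NR5A2 (LRH-1) is a nuclear receptor that acts with PTF1, GATA4 and GATA6 are zinc finger factors needed to form the pancreas, and MECOM (EVI1) is a zinc finger factor linked to the acinar response to injury.

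Digestive enzyme RNA made up a larger share of the libraries at low than at high glucose. A list of 25 digestive enzyme genes took 50.7% to 67.0% of the counts of the low glucose libraries and 12.9% to 25.6% of the high glucose libraries. A list of 14 islet endocrine genes, headed by the insulin genes, took 2.25% to 4.81% and 3.87% to 10.3%, so both kinds of RNA were present in every library. High glucose replicate 1 stood apart, with the lowest enzyme share and the highest islet share. Totals ran from 10596020 to 15846235 counts per library. Because the enzymes fill so much of a library, values are given as CPM, counts of a gene per 1000000 counts, on library sizes scaled by the trimmed mean of M-values (TMM), which assumes that most genes keep their level. In bulk RNA, fewer acinar cells and less acinar RNA per cell cannot be told apart.

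At high glucose 3 of the 7 factors fell (Rbpjl, Bhlha15 and Gata6) and none rose, in edgeR's quasi-likelihood test at an adjusted p under 0.05. Of all tested genes 14.2% were called lower and 13.3% higher. Rbpjl was lowered 27.9-fold, Bhlha15 6.94-fold and Gata6 2.01-fold. Nr5a2, Gata4 and Mecom were also lower in every high glucose library than in any low glucose library but did not pass. Such a separation held for 22.4% of all genes in this direction. Ptf1a overlapped between the groups. At an unadjusted p under 0.05, 6 were lower and 0 higher. The share of all genes past that looser threshold was not computed, so this count has no background to be read against. With DESeq2 5 were called lower and 0 higher (14.4% and 13.1% of all genes), and with limma-voom 4 and 0 (14.0% and 10.7%). The median log2 fold change of the 7 (high minus low) was -1.36, against 0.01 for all genes tested.

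Replicate numbers were shared between the groups, and deviations of same-numbered libraries from their group means correlated (r = 0.40, 0.26 and 0.25). No label states a pairing, so a block on replicate number rests on these data alone. With the replicate number as a block, 6 of the 7 fell (Rbpjl, Bhlha15, Nr5a2, Gata4, Gata6 and Mecom), where 17.7% of all genes were called lower. Without high glucose replicate 1, 5 fell, against 20.5% of all genes. Without high glucose replicate 2, 5 fell as well, against 10.2%. The count was 3 without low glucose replicate 1 (11.1% of all genes). Rbpjl and Bhlha15 alone fell without low glucose replicate 2 (7.11%), low glucose replicate 3 (10.9%) or high glucose replicate 3 (8.19%).

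**Figure D1:**
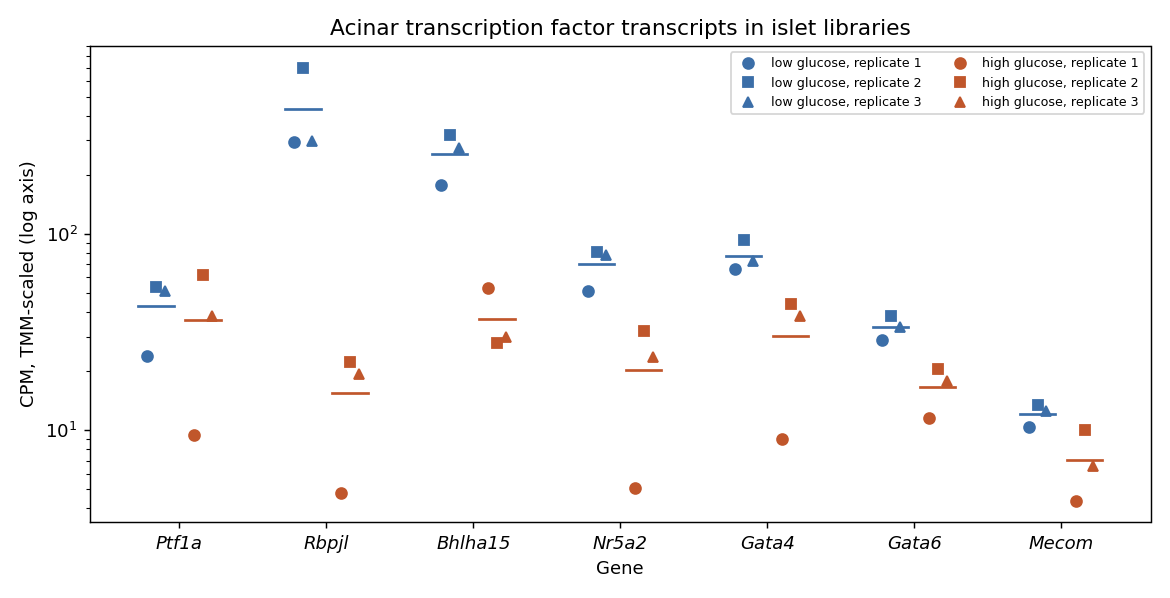
CPM (TMM-scaled, log axis) of the 7 genes in each of the 6 libraries, low glucose in blue and high glucose in orange, with symbols for replicates 1 to 3 and a line at each group's mean. Rbpjl and Bhlha15 separate most widely, Ptf1a overlaps, and high glucose replicate 1 (orange circle) is the lowest library for each gene except Bhlha15.

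Rbpjl, the acinar partner of PTF1A, lies on chromosome 2 (164403141 to 164415448, plus strand, GRCm38) and had the largest change of the 7. It had 294, 703 and 297 CPM in low glucose replicates 1 to 3 and 4.78, 22.3 and 19.3 CPM in high glucose replicates 1 to 3. The groups were far apart, and the highest of the high glucose libraries was well below the lowest of the low glucose libraries. The counts behind these values were 3511, 4226 and 1887 at low and 135, 447 and 383 at high glucose, so the fall is also visible in unscaled counts. The log2 fold change was -4.80 ± 0.68 (SE, n = 3 per group), with an edgeR adjusted p of 0.00312. It was called lower in each of the 16 alternative fits. With 1 library left out its log2 fold change ran from -5.16 to -4.25. The exons of Rbpjl share 149 bases with Matn4 on the other strand, and with no strand setting stated a share of the reads could belong to that gene. Matn4 had 805 counts over the 6 libraries.

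The DNA just before Rbpjl is shown because the gene is a known target of the PTF1 complex, whose DNA site joins an E-box, bound by the bHLH dimer, with a box bound by RBPJ or RBPJL. The stretches before Ptf1a and Bhlha15 are shown beside it, since these 2 genes encode bHLH factors, unlike Rbpjl, and moved differently. The sequences are RefSeq's (GRCm38.p6), plus strand, 5′ to 3′, and 5 of the 7 genes had an entry. Capitals mark matches on either strand to the E-box letters CANNTG and to the RBPJ box letters TGGGAA. Positions count back from the RefSeq transcription start.
Rbpjl, chr2:164402944-164403140: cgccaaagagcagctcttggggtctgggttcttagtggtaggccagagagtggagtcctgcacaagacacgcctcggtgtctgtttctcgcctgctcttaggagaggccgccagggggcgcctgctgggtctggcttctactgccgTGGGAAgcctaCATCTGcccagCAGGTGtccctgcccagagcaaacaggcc
Ptf1a, chr2:19445413-19445662: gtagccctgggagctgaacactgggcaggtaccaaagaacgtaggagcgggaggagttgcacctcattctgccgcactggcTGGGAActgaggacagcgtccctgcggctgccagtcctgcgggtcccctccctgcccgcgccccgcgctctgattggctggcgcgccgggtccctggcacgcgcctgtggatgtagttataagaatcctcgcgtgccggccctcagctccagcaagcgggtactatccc
Bhlha15, chr5:144190036-144190285: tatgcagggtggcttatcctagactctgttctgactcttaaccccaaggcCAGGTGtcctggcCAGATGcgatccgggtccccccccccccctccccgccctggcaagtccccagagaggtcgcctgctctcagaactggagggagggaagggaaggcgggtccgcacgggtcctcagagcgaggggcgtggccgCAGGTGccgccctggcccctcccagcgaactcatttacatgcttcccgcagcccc

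The 197 bases shown for Rbpjl run from -250 to -54 and stop just before the gene's first base as given above. In them a TGGGAA starts at -104, and CANNTG matches start at -93 and -82, which puts the starts 11 and 22 bases apart. In windows cut in the same way, -250 to -54, over 32851 RefSeq starts, 58.6% held a CANNTG, 17.7% a TGGGAA and 10.7% both. A pair at one of these 2 spacings, which were read from Rbpjl itself, stood in 0.493% of the windows. In 250 bases, Ptf1a had a TGGGAA at -169 and no CANNTG, and Bhlha15 had CANNTG matches at -200, -187 and -55 and no TGGGAA. Of all windows of 250 bases 66.2% held a CANNTG and 21.6% a TGGGAA. A match describes the letters only.

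Ptf1a, which encodes the acinar-specific bHLH subunit of the same complex, lies on chromosome 2 as well (19445663 to 19447501, plus strand) and did not follow Rbpjl. It had 24.0, 53.4 and 51.4 CPM at low glucose and 9.45, 62.1 and 38.2 CPM at high glucose. The groups overlapped, since high glucose replicate 2 was the highest and high glucose replicate 1 the lowest of all 6 libraries. Its log2 fold change was -0.23 ± 0.61, with an edgeR adjusted p of 0.812, and 0.24 without high glucose replicate 1 (adjusted p = 0.629). With the replicate block the value was -0.50 ± 0.29 (adjusted p = 0.214). Unscaled counts were 287, 321 and 327 at low and 267, 1243 and 758 at high glucose. Of the 1508 exonic bases of Ptf1a 609 are shared with the antisense gene Ptf1aos, so here too reads of the other strand cannot be told apart, nor in ratios with Ptf1a. Ptf1aos had 30 counts over the 6 libraries.

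The ratio of Ptf1a to Rbpjl, in counts per kb of exon, was 0.311, 0.289 and 0.659 at low glucose and 7.52, 10.6 and 7.52 at high glucose. This ratio was chosen after the values had been seen. It needs no scaling between libraries, and the high glucose libraries lay above the low glucose libraries without overlap. The difference of the mean log2 ratios was 4.44, with an exact two-sided permutation p of 0.10, the smallest that 3 against 3 allows.

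RBPJ is the other protein that can fill RBPJL's place in the complex. Rbpj had 7.78, 7.98 and 13.2 CPM at low and 11.8, 8.29 and 9.17 CPM at high glucose, a log2 fold change of 0.02 ± 0.27 (edgeR adjusted p = 0.960). The ratio of Rbpjl to Rbpj per kb of exon was 84.0, 196 and 50.0 at low glucose and 0.902, 5.99 and 4.68 at high glucose. In high glucose replicate 1 the pair was near parity, whereas Rbpjl exceeded Rbpj in the other 5 libraries. The mean log2 ratio differed by -5.00, with an exact two-sided permutation p of 0.10.

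**Figure D2:**
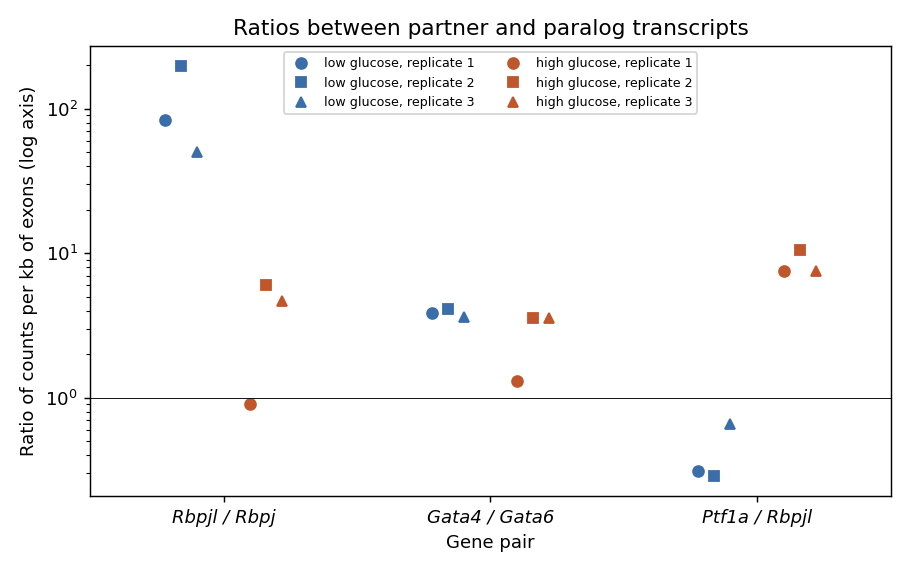
Ratios of counts per kb of exon (log axis) for Rbpjl to Rbpj, Gata4 to Gata6 and Ptf1a to Rbpjl in each library, low glucose in blue and high glucose in orange; the horizontal line marks equal levels. Rbpjl to Rbpj is 50.0 or more at low and 5.99 or less at high glucose, and Ptf1a to Rbpjl lies on opposite sides of 1 in the 2 groups.

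Bhlha15, the secretory cell factor, lies on chromosome 5 (144190286 to 144194441, plus strand). It had 178, 318 and 273 CPM at low glucose and 52.8, 27.9 and 29.9 CPM at high glucose, with no overlap. The log2 fold change was -2.80 ± 0.34, with an edgeR adjusted p of 0.00185, and -3.15 to -2.59 with 1 library left out, past the threshold each time. Unlike the other 6 genes, its highest value at high glucose was in replicate 1. That library also had the highest level at high glucose of 9 B-lymphocyte and plasma cell markers (1279 summed CPM, against 121 and 318 in replicates 2 and 3) and of 14 islet endocrine genes (57970, against 28270 and 32000). The same library was the highest at high glucose for the summed macrophage (142, against 24.0 and 39.2), mesenchymal (240.2, against 24.5 and 55.1), endothelial, mesothelial and duct markers. At low glucose the B-lymphocyte and plasma cell markers summed to 738 to 1510 CPM, and no marker of the 9 was at 0 throughout. Of the 9, 8 passed the filter on low counts, among them the plasma cell genes Jchain and Mzb1. The plasma cell receptor gene Tnfrsf17 had at most 2 counts in a library and did not pass the filter. BHLHA15 is known in plasma cells too, and the part of these cells in its values was not tested.

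Nr5a2, the nuclear receptor gene, lies on chromosome 1 (136842571 to 136960448, minus strand). It had 51.2, 81.1 and 77.8 CPM at low and 5.09, 32.2 and 23.7 CPM at high glucose, without overlap but with high glucose replicate 1 far below the other two. The log2 fold change of -1.79 ± 0.58 just missed the threshold (edgeR adjusted p = 0.0557). It passed with the replicate block (-2.09 ± 0.37, adjusted p = 0.00711), with DESeq2 (-1.75, adjusted p = 0.00606) and without high glucose replicate 1 (-1.32, adjusted p = 0.00608). Limma-voom (-2.18) and the fit with no filter (-1.69) called it too. Library totals (-0.66) and islet gene scaling (-1.29) did not, and with the digestive enzyme sum as library size the value was positive (0.72) without passing. With each library left out in turn, the adjusted p ran from 0.00608 to 0.150, and 2 of the 6 fits called it.

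Gata4 lies on chromosome 14 (63198922 to 63271692, minus strand) and had 66.5, 93.6 and 72.7 CPM at low and 8.99, 43.8 and 38.0 CPM at high glucose. Again the groups did not overlap and high glucose replicate 1 was lowest. Its log2 fold change was -1.36 ± 0.51 (edgeR adjusted p = 0.0860), or -1.61 ± 0.38 with the replicate block, where it passed (adjusted p = 0.0191). Without high glucose replicate 1 it passed at -0.92 (adjusted p = 0.00881). That was the only 1 of the 6 fits with a library left out that called it, and the adjusted p ran up to 0.219. DESeq2 called it too (-1.32), but islet gene scaling (-0.87), library totals (-0.26) and limma-voom (-1.65) did not. Gata6, on chromosome 18 (11052064 to 11085635, plus strand), had 28.7, 38.2 and 33.7 CPM at low and 11.5, 20.6 and 17.8 CPM at high glucose. Here the 3 libraries of a group lay closer together, and the smaller log2 fold change of -1.01 ± 0.24 passed the edgeR test (adjusted p = 0.0205). This call was lost with islet gene scaling (-0.62, adjusted p = 0.392) and with library totals (0.14), and also without low glucose replicate 2 (-0.90, adjusted p = 0.0820), low glucose replicate 3 (-0.99, adjusted p = 0.0545) or high glucose replicate 3 (-1.05, adjusted p = 0.0632).

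The ratio of Gata4 to Gata6 per kb of exon was 3.86, 4.08 and 3.60 at low glucose and 1.30, 3.54 and 3.56 at high glucose. High glucose replicate 1 alone departed from a ratio near 4, and the low and high groups were otherwise separated only narrowly. The mean log2 ratio differed by -0.60, with an exact two-sided permutation p of 0.10, and by -0.11 without high glucose replicate 1.

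Nr5a2, Gata4 and Gata6 are known in gut epithelium too, and enterocyte markers were present at low glucose. The 16 enterocyte markers summed to 7009, 5603 and 2473 CPM in low glucose replicates 1 to 3 and to 164 to 251 CPM at high glucose, and 14 of the 14 tested fell. The intestinal factor gene Cdx2 had 117, 38 and 8 counts at low and at most 2 counts at high glucose. Among the low glucose libraries, the 3 factors were highest in replicate 2 on the CPM scale. Per 1000000 digestive enzyme counts they were highest there in replicate 1, but so were Bhlha15 and Mecom. Over all libraries on that scale, Nr5a2 (172) and Gata4 (234) were highest in high glucose replicate 2. Gata6 (159) was highest in high glucose replicate 1. Of the 9 gastric markers, Gkn1, Gkn2 and Atp4b were at 0 throughout, and nearly the whole sum came from Tff2. The part of gut cells in the 3 factors was not tested.

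Mecom, on chromosome 3 (29951296 to 30548008, minus strand), was the least abundant of the 7. It had 10.4, 13.5 and 12.6 CPM at low and 4.39, 10.1 and 6.60 CPM at high glucose. The nearest libraries of the groups, low glucose replicate 1 and high glucose replicate 2, almost met. Its log2 fold change was -0.79 ± 0.32 (edgeR adjusted p = 0.104), and it passed with the replicate block (-0.86 ± 0.23, adjusted p = 0.0281) and without high glucose replicate 2 (-1.13, adjusted p = 0.0370). No other fit with 1 library left out called it, and the adjusted p ran up to 0.254. It did not pass with DESeq2 (-0.75) or limma-voom (-0.87) either. MECOM is known in endothelial cells too, whose 8 markers summed to 281 to 342 CPM at low and 151 to 314 CPM at high glucose. Their part in its values was not tested.

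Levels were ordered across genes per kb of exon, with all annotated exons of a gene merged. At low glucose Rbpjl (75.2 ± 41.0 CPM per kb, SD, n = 3) and Bhlha15 (73.4 ± 20.4) led and did not differ beyond their spread. Ptf1a (28.5 ± 10.9) and Gata4 (19.9 ± 3.64) followed, also with overlapping libraries, then Nr5a2 (11.9 ± 2.78), Gata6 (5.15 ± 0.732) and Mecom (0.977 ± 0.128), each below the one before without overlap. At high glucose the order was Ptf1a (24.2 ± 17.5), Bhlha15 (10.6 ± 3.95), Gata4 (7.75 ± 4.78), Nr5a2 (3.44 ± 2.35), Rbpjl (2.698 ± 1.636), Gata6 (2.56 ± 0.717) and Mecom (0.565 ± 0.231). Neighbours in that second order overlapped between libraries down to Gata6, and only Mecom lay clear of the gene above it. These places by mean are therefore not resolved at high glucose, where Bhlha15 (15.1) lay above Ptf1a (6.26) in replicate 1.

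The same genes were then compared with the digestive enzymes, which the PTF1 complex is known to switch on. Per 1000000 digestive enzyme counts, Ptf1a had 44.5, 45.2 and 43.3 counts in the low glucose libraries, a range narrower than that of any other member. At high glucose it had 130, 332 and 216. Rbpjl had 544, 595 and 250 at low and 65.9, 119 and 109 at high glucose, and was the only one of the 7 that lay lower in every high glucose library on this scale. Gata6 (53.2, 32.4 and 28.3 at low, 159, 110 and 101 at high glucose) and Mecom (19.2, 11.4 and 10.6 at low, 60.6, 53.9 and 37.3 at high glucose) lay higher in each. Gata4 was also higher in each high glucose library, though by less than 1 count in the closest pair (123 at low, 124 at high glucose). Nr5a2 and Bhlha15 overlapped.

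Set against the summed enzyme counts in the edgeR fit, Rbpjl was lower by a log2 fold change of -2.24 ± 0.66 (adjusted p = 0.00112), which 1.67% of all genes shared as a call. Ptf1a was higher by 2.35 ± 0.69 (adjusted p = 0.00101), Mecom by 1.88 ± 0.77 (adjusted p = 0.0171) and Gata6 by 1.70 ± 0.69 (adjusted p = 0.0169). On that scale 87.8% of all genes were called higher, with a median of 2.82, so these rises were smaller than that of the median gene. Bhlha15 (0.34 ± 0.63), Nr5a2 (0.72 ± 0.67) and Gata4 (1.12 ± 0.66) did not pass, with approximate intervals of about 2 SE on either side that include both no difference and changes of more than 1 on the log2 scale.

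**Figure D3:**
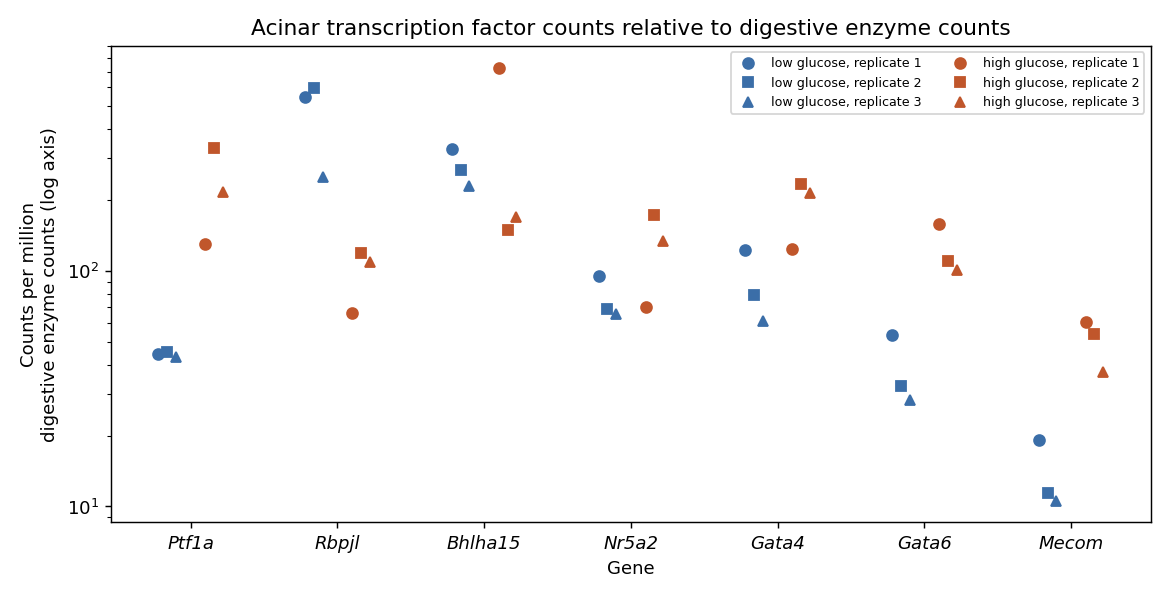
Counts of each gene per 1000000 digestive enzyme counts (log axis) in the 6 libraries, low glucose in blue and high glucose in orange. Rbpjl lies lower at high glucose, Ptf1a, Gata6 and Mecom lie higher, and the low glucose values of Ptf1a almost coincide at 43.3 to 45.2.

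**Figure D4:**
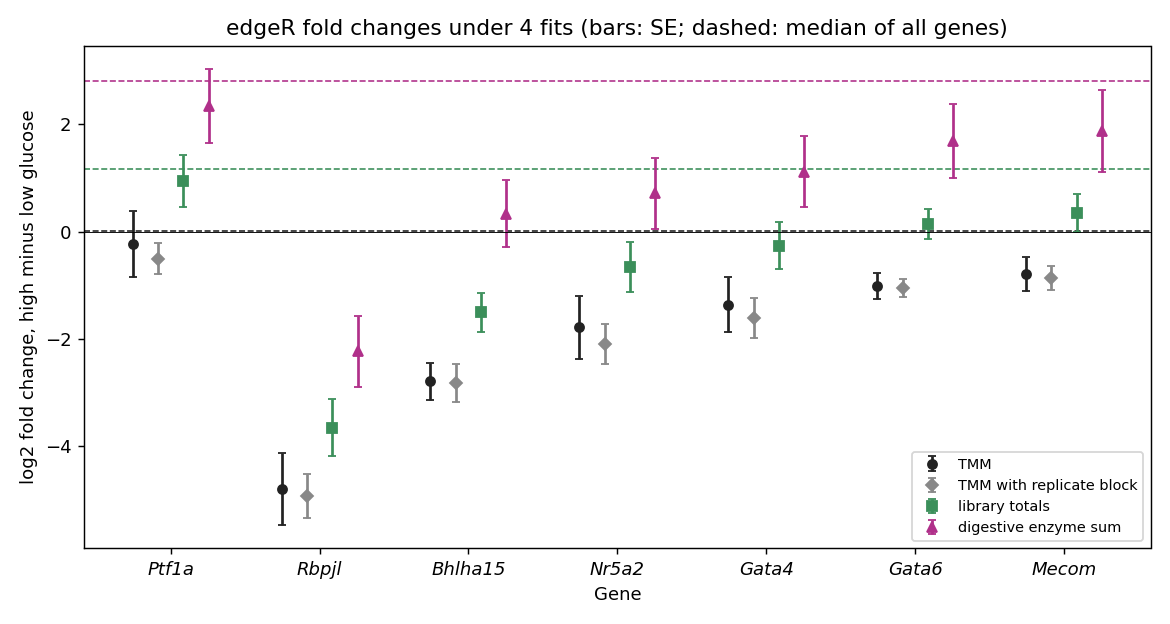
Log2 fold change (high minus low glucose) ± SE of the 7 genes in 4 edgeR fits: TMM scaling, TMM scaling with the replicate block, library totals, and the digestive enzyme sum as library size; dashed lines give the median of all genes under each scaling. Rbpjl alone is below 0 in all 4 fits. Ptf1a, Gata6 and Mecom are above 0 with library totals and with the enzyme sum, and Bhlha15, Nr5a2 and Gata4 with the enzyme sum only.

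With unscaled library totals, the all-gene median moved to 1.16, and only Rbpjl (-3.66) and Bhlha15 (-1.51) of the 7 were called lower, where 4.49% of all genes were. Ptf1a (0.94), Gata6 (0.14) and Mecom (0.35) turned positive there without passing. Every one of the 7 stayed below the all-gene median under this scaling.

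Among 12 partners and cofactors of these proteins, 11 were tested, 4 rose and 1 fell. The inhibitors of bHLH proteins Id1, Id2 and Id3, which bind E proteins without contacting DNA, each rose. Id2 went from 17.1, 17.5 and 21.2 CPM at low to 37.8, 54.8 and 45.7 CPM at high glucose, a log2 fold change of 1.31 ± 0.19 (edgeR adjusted p = 0.00313), and kept its call in each of the 16 alternatives. Id1 rose by 1.66 ± 0.40 and Id3 by 1.24 ± 0.33. Both also rose under the 5 other scalings, and both lost the call without low glucose replicate 2 (1.61 and 1.16), low glucose replicate 3 (1.40 and 1.03), high glucose replicate 2 (1.46 and 1.32) or high glucose replicate 3 (1.58 and 1.05). The E protein gene Tcf3 rose by 0.49 ± 0.14 (adjusted p = 0.0394) but did not pass with the replicate block (0.49), limma-voom (0.48), islet gene scaling (0.84), or without any of the libraries other than high glucose replicate 1 (0.45 to 0.52). The E protein genes Tcf12 (0.56 ± 0.19) and Tcf4 (-0.26 ± 0.20) did not pass.

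Nr0b2, which encodes the receptor SHP that binds and inhibits NR5A2, fell by 3.33 ± 0.73 on the log2 scale (edgeR adjusted p = 0.0150), on counts of 34, 48 and 85 at low and 7, 19 and 24 at high glucose. It did not pass when low glucose replicate 2 was left out (-3.32), nor with the digestive enzyme sum as library size (-0.59). The GATA cofactor gene Zfpm1 had a log2 fold change of -0.93 ± 0.33 that did not pass, and passed with the replicate block (-1.02), with DESeq2 (-0.89) and without high glucose replicate 1 (-0.63). Zfpm2 had at most 11 counts in a library and was not tested. Ctbp1 and Ctbp2, which encode corepressors that bind MECOM, had 0.17 ± 0.16 and 0.83 ± 0.37 and did not pass. With 1 library left out, 1 to 6 of the 11 rose and 0 to 3 fell.

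Of 12 other transcription factor genes of the pancreas, 3 fell and 1 rose, with a median of -0.41. The duct and progenitor factor gene Onecut1 fell by 2.62 ± 0.55, on at most 25 counts per library, and the call was lost without low glucose replicate 2 (-2.47) and with the enzyme sum as library size (0.04). Pdx1, needed for the whole pancreas and later for beta cells (-1.28 ± 0.27), and the hepatocyte nuclear factor gene Hnf4a (-1.38 ± 0.35) fell as well. Neither Pdx1 (-0.12) nor Hnf4a (-0.34) passed with library totals, nor with islet gene scaling (-1.06 and -0.92), nor without low glucose replicate 1 (-1.13 and -1.21) or 2 (-1.31 and -1.32), and Hnf4a did not pass without high glucose replicate 3 (-1.31) either. Both were positive when set against the enzyme sum (1.65 and 1.13). The Notch target Hes1 rose by 1.51 ± 0.28 and kept its call in each of the 16 alternatives. Sox9 (-0.17 ± 0.53) and the secretory stress factor gene Xbp1 (-0.70 ± 0.36) did not pass, although Xbp1 did with the replicate block (-0.67). With 1 library left out, 0 to 4 of the 12 fell, against 0 without low glucose replicate 2.

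On the TMM scale, most of the acinar product genes fell. Of the 25 digestive enzyme genes 22 fell and none rose, with a median of -2.84. No digestive enzyme gene was higher with DESeq2 or limma-voom either. Those with the smallest p were Amy2a5, a pancreatic amylase (-6.34 ± 0.46), Cela3a, an elastase (-3.99 ± 0.47), Ctrc, a chymotrypsin (-3.79 ± 0.43), and Prss3, a trypsin (-2.07 ± 0.27). Cela3a had at most 46 counts in a library. Amylase and trypsin genes have near-identical copies, so their single counts are uncertain. Only 11 fell without low glucose replicate 2 or high glucose replicate 3, 13 without high glucose replicate 2 and 14 without low glucose replicate 3. Of 13 genes of the acinar granule and surface 12 fell, with a median of -2.75, and those with the smallest p were the water channel genes Aqp8 (-4.30 ± 0.49) and Aqp12 (-3.08 ± 0.43), the serpin gene Serpini2 (-4.93 ± 0.58) and the pancreatic disulfide isomerase gene Pdia2 (-2.67 ± 0.40). From 8 to 13 of them fell with 1 library left out.

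Of 8 vesicle and secretory genes of acinar cells, several of them known BHLHA15 targets, 7 fell, with a median of -2.51. Tmed11, of the p24 family of cargo receptors, went from 77.7, 156 and 150 CPM at low to 2.37, 5.39 and 4.08 CPM at high glucose, a log2 fold change of -5.03 ± 0.41. Its relative Tmed6 (-3.01 ± 0.44), the gap junction gene Gjb1 (-3.04 ± 0.48) and the secretory granule GTPase gene Rab26 (-2.58 ± 0.49) fell too. Set against the enzyme sum, only Tmed11 of these was still called lower (-2.25), while Tmed6 (-0.26), Gjb1 (-0.35) and Rab26 (0.15) did not pass. From 5 to 7 of the 8 fell with 1 library left out.

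A list of 18 genes known from the change of acinar cells toward a duct-like state was read beside these, and of 17 tested 8 rose and 1 fell, with a median of 1.38. Cldn4, a tight junction gene, rose by 5.47 ± 0.59, Spp1, which encodes osteopontin, by 4.15 ± 0.37, the keratin gene Krt7 by 2.05 ± 0.23 and the adhesion receptor gene Cd44 by 1.75 ± 0.22. Islet and stromal cells also express members of this list, so a rise does not name the cells. Duct markers moved unevenly, with 3 of 10 higher and 4 lower. The 3 that rose, among them Krt7 and Spp1, are the 3 that also belong to the duct-like list. None of the 4 that fell, among them Aqp1 (-3.63) and Car2 (-3.80), is on that list.

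**Figure D5:**
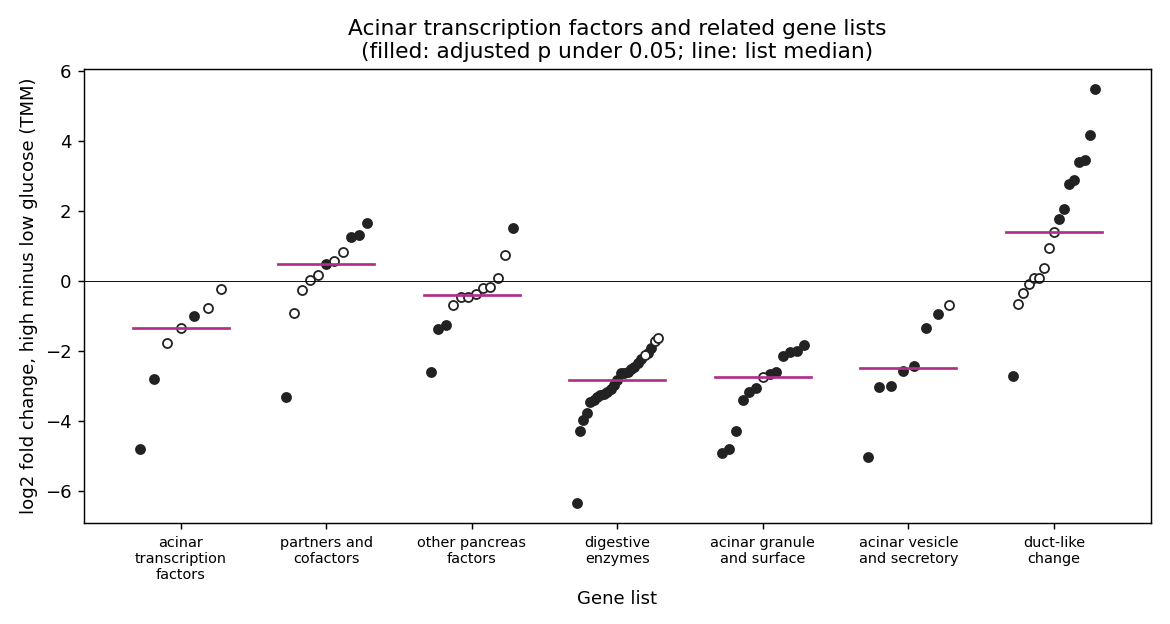
Log2 fold changes (high minus low glucose, TMM scaling) of the 7 factors and of 6 related gene lists, 1 point per tested gene, filled where the edgeR adjusted p was under 0.05, with a line at each list's median. Medians are -2.84, -2.75 and -2.51 for the 3 lists of acinar products, -1.36 for the 7 factors and 1.38 for the duct-like list.

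Among themselves the 7 genes varied in more than one way over the 6 libraries. Nr5a2 and Gata4 were the closest pair, with a Pearson r of log2 CPM of 0.991, and Nr5a2, Gata4, Gata6 and Mecom were linked by values of at least 0.952. Ptf1a and Bhlha15 were the most unlike, with r = 0.164, and Ptf1a and Rbpjl had 0.530. All these values are over 6 libraries that share group, depth and composition, and are descriptions. Among all genes with a mean of at least 1 CPM, the 3 nearest to Ptf1a were Ski, Naa30 and Slc19a2, with r of 0.998, 0.993 and 0.991. Those nearest to Rbpjl were 1810020O05Rik, Ppp1r37 and Uqcrc1 (0.999, 0.997 and 0.997), and to Bhlha15 Dynll2, Rftn2 and Tbc1d30 (0.999, 0.998 and 0.998). Nr5a2 was nearest to Gm16136, Zfpm1 and Pm20d1, Gata4 to AU040320, Pm20d1 and Nr5a2, Gata6 to Mfsd4a, Kcnd3 and Tmem30b, and Mecom to Azin1, Nek4 and Sec14l1, at r between 0.991 and 0.999.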

How the data were processed

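The authors deposited raw counts of reads per gene for the 6 libraries. The tools listed, per the submitters' processing notes, are STAR (2.7.3a) and HTSeq (0.6.1p1), on the GRCm38 build. Annotation release, strand setting and barcode handling are not given in the sources used here. Standard errors and p-values reflect the spread between libraries. Names, coordinates and merged exon lengths came from GENCODE M21 (GRCm38). The members and gene lists were chosen with earlier results of these data known.

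Groups were compared with edgeR 4.0.16 (R 4.3.3), the quasi-likelihood F-test with TMM scaling and filterByExpr (minimum count 10, minimum total 15), adjusted by Benjamini-Hochberg over 13996 genes. Standard errors are the absolute log2 fold change over the root of F. Named genes were the 7 factors, the partners, 5 other pancreas factors (1 of them is not reported here), up to 4 changed genes with the smallest p per list, and the 3 genes most like each factor by Pearson r of log2 CPM (prior count 2); Hnf4a and Hes1 come under the list rule. The code was tested on simulated data. Deviations of same-numbered libraries from their group means correlated at 0.40, 0.26 and 0.25, so the numbers were taken to pair libraries, from the data alone; no label states it. Libraries of a group differed by more than sampling noise (lowest chi-square per df 17.1). Alternatives were 5 other scalings, 2 filters, DESeq2 1.42.0, limma-voom (limma 3.58.1), a fit blocked on replicate number, and leaving out single libraries in turn. Figures used matplotlib 3.10.9.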

Additional observations from a re-analysis of the deposited data

How the results depend on the processing

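Rbpjl stayed lower and past the threshold in each of the 16 alternatives, and Bhlha15 in 15. The count of the 7 factors called lower, 3 as reported, became 5 with DESeq2, 6 with the replicate block, and 1 with the digestive enzyme sum as library size, where 3 were higher. It ran from 2 to 5 with 1 library left out. Signs turned positive with the enzyme sum for Ptf1a (2.35), Bhlha15 (0.34), Nr5a2 (0.72), Gata4 (1.12), Gata6 (1.70) and Mecom (1.88), with library totals for Ptf1a (0.94), Gata6 (0.14) and Mecom (0.35), with islet gene scaling for Ptf1a (0.26) and without high glucose replicate 1 for Ptf1a (0.24). Leaving out 1 library put Ptf1a between -0.84 and 0.24. Of the 25 enzyme genes 22 fell as reported, 6 with the enzyme sum and 11 to 22 with 1 library left out. The enzyme sum is made of these same 25 genes, so a fall of the whole list cannot show on that scale. Of all genes 3848 changed as reported, 8978 with library totals, 12523 with the enzyme sum, 2162 with islet gene scaling, and 1743 to 5685 with 1 library left out. Those scalings divide by other totals. With 1 library left out, the count of all genes was lowest without low glucose replicate 2 (1743) and highest without high glucose replicate 1 (5685). The causes of these shifts were not tested. Islet gene scaling also ended the call of Gata6 (-0.62). Low counts limit the precision of Onecut1, Nr0b2 and Cela3a.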
